A study of Mus musculus with 8 samples.

Results

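The 51 genes described here encode the machinery that recognizes, licenses and fires DNA replication origins and that copies DNA at the fork. They were measured in Neuro2a cells, an established mouse neuroblastoma line of the AJ background strain, grown in one of a pair of states. The anchorage dependent (AD) cells grew attached in DMEM with 10% fetal bovine serum. The anchorage independent (AI) cells, whose labels add anoikis resistance, grew as floating tumorspheres in NeuroCult medium with stem cell proliferation supplements, EGF at 20 ng/ml, bFGF at 10 ng/ml and heparin at 2 µg/ml. Each state had 4 arrays. Attachment and medium differ together and cannot be told apart. The genes were chosen by name. Each is represented by the transcript cluster, a set of array probes for 1 transcript, that carries its symbol alone, and by the brightest one where there were several. All 51 were measured, out of 19938 genes with such a cluster.

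Replication starts when the origin recognition complex (ORC), Cdc6 and Cdt1 load the MCM2-7 helicase on DNA in G1, which is called licensing. At the start of S phase the Cdc7 kinase turns the loaded helicase on, and it joins with Cdc45 and the GINS complex. Polymerase α with its primase then lays down primers, and polymerases ε and δ extend them on the sliding clamp PCNA, which the RFC complex loads. Many of these genes are transcribed under E2F control as cells enter S phase, so their mRNA is much used as a sign of proliferation.

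The cells carried the marks of their label. Of 10 measured markers of sympathetic neuroblasts, 9 lay above the median signal of every array, and the exception was Nefl. None of 6 fibroblast, 4 measured glial and 6 leukocyte markers did so, and none of them was called in either direction. The mean of the measured neuroblast markers was 9.29 to 9.49 log2 in AD arrays and 8.74 to 8.80 log2 in AI arrays. Of them, 3 were called higher in AD cells, Dbh, Mycn and Phox2a, with log2 ratios of AD over AI of 3.01, 1.81 and 1.13. The list did not move as a whole. Gata3 and Isl1 were higher at under 1.5-fold, and Hand2, Chga, Stmn2 and Nefl did not pass the adjusted p. Chgb was lower in AD cells, also at under 1.5-fold (log2 ratio -0.49, limma adjusted p = 0.000204). The part of these differences in the results below was not tested. Median array signals ran from 5.82 to 5.92 log2 (AD) and from 5.92 to 5.99 log2 (AI). Within the AD state, replicate 4 differed most from the rest, with a limma array weight, which is low for an array that strays from its group, of 0.35 against 0.77 to 1.76 for the other 7 arrays, and results are therefore given with and without it. Nothing in the labels ties that array to a batch. The labels call the arrays of a state biological replicates and the study's methods speak of replicate hybridizations, so p-values measure the spread between these samples, which may be technical.

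The replication genes were higher in AD cells as a group. The log2 ratio of AD over AI was above 0 for 51 of 51 genes and ran from 0.09 for Orc4 to 1.03 for Pola1, with a median of 0.55. The median over all 35556 clusters was -0.00078. A gene is called higher when its limma p, adjusted over all clusters, is under 0.05 and its ratio reaches 1.5-fold, or 0.58 on the log2 scale. By this rule 25 of the 51 genes rose in AD cells, none fell and 26 were not called. Over all clusters 1.39% were called higher in AD cells and 2.53% lower, and among named genes the shares were 2.02% higher and 2.4% lower. At any fold, 44 of the 51 passed the adjusted p toward AD cells and none toward AI cells, against 8.5% of all clusters toward AD and 9.62% toward AI. The ratios lay on both sides of the fold threshold, with Mcm7 at 0.61 and Dtl at 0.55 nearest to it, and several called genes lay just above it. By the analysis of variance that the methods name, 18 genes were called, and Orc1, Cdc6, Mcm3, Mcm6, Fen1, Chaf1a and Wdhd1 were not among them. The share of all clusters called by that analysis was not counted. In RNA from whole cultures, fewer AI cells in S phase and less of these mRNAs in each AI cell cannot be told apart.

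All 4 AD arrays lay above all 4 AI arrays for 31 of the 51 genes, which was so for 10.6% of all clusters, and an exact two-sided permutation test gives such a gene p = 0.0286, the smallest value that 4 arrays against 4 allow. The remaining 20 genes overlapped. AD replicates 1 to 3 lay above every AI array for 49 of the 51 genes, against 17.2% of all clusters, and Orc4 and Rpa3 were the exceptions. AD replicate 4 was the lowest AD array for 51 of 51 genes, for 31.1% of all clusters and for 327 (81.3%) of the 402 named genes that were called higher in AD cells. Without it, 30 genes were called higher, with 2.0% of all clusters called higher and 2.6% lower, and the median log2 ratio was 0.68. Leaving out the lowest AD array raises each of the 51 ratios by arithmetic. The higher ratios and added calls without AD replicate 4, here and below, are therefore no separate support. Of the 25 calls, 15 held whichever single array was left out and 10 did not, and these are named below. In the plot of all values the open diamond of AD replicate 4 is the lowest AD symbol in each column.

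**Figure D1:**
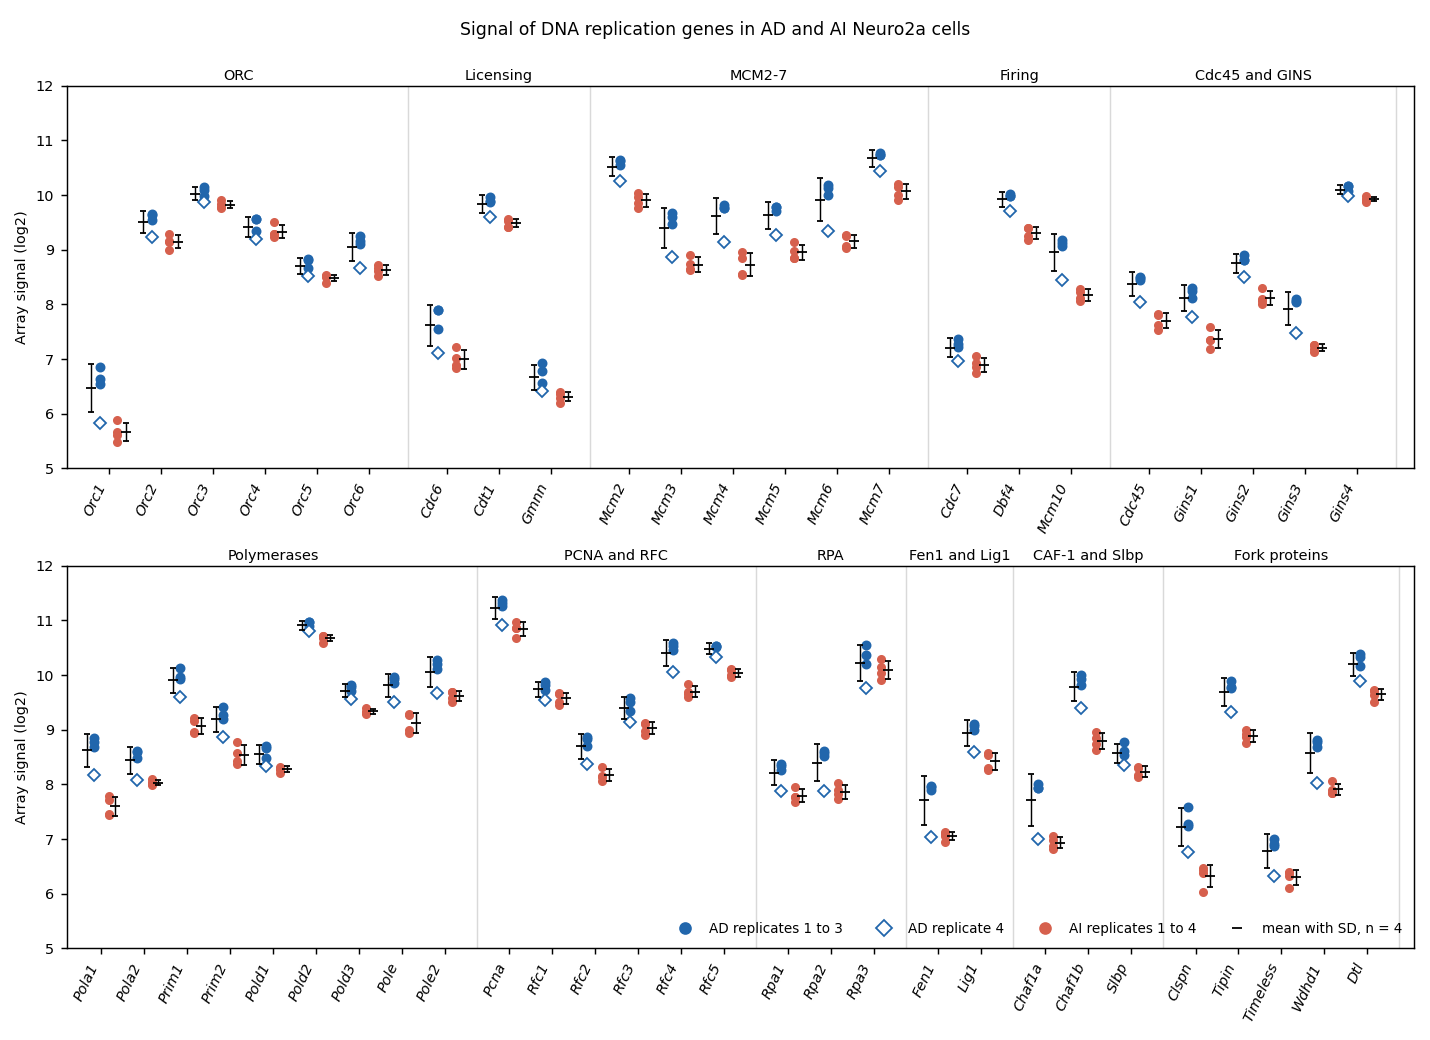
Array signal (log2) of the 51 replication genes, grouped by complex, in 4 AD arrays (blue, with AD replicate 4 as an open diamond) and 4 AI arrays (red); black bars are means with SD, n = 4 each. AD replicates 1 to 3 lie above all AI arrays for 49 genes, and AD replicate 4 is the lowest AD array for all 51.

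The DNA just before the start sites of these genes was searched for the E2F words TTTCCCGC, TTTGGCGC, TTTCGCGC and TTTGCCGC on both strands, since the members moved together. RefSeq start sites on the assembly GRCm38.p6 were at hand for 42 of the 51 genes, matched by gene symbol. In the 250 bases before a start, 10 of the 42 genes (23.8%) held an E2F word, against 2.16% of the 27025 genes of the whole annotation. That comparison set, used for the other words too, was not matched to the members for expression or base composition. An E2F word was found for 7 of 19 genes that were called and 3 of 23 that were not. These counts were 3 of 19 and 3 of 23 in the 100 bases before the start, and 9 of 19 and 8 of 23 when the 50 bases after the start were added to the 250 before it, so the split depends on the window. The stretches of those 10 genes are shown because they carry the word. They read 5′ to 3′ in the direction of the gene, with capitals for the E2F words or their reverse complements, which may overlap.
Cdc6, chr11:98907987-98908046, plus strand: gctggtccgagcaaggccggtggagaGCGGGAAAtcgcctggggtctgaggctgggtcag
Dtl, chr1:191575545-191575604, minus strand: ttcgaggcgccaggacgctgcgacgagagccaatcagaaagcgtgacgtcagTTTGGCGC
Gins3, chr8:95633492-95633551, plus strand: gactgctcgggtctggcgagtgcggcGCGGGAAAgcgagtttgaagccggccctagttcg
Mcm5, chr8:75109330-75109389, plus strand: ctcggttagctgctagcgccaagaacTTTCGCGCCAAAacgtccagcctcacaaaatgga
Mcm6, chr1:128359735-128359841, minus strand: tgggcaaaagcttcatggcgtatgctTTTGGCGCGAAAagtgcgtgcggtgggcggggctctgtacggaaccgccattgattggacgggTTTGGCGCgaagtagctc
Mcm7, chr5:138172015-138172074, minus strand: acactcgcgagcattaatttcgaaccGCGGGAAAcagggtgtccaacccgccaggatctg
Orc1, chr4:108579394-108579453, plus strand: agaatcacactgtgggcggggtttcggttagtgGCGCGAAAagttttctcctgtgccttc
Orc3, chr4:34614950-34615009, minus strand: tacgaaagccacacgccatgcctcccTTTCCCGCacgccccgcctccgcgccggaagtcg
Pola1, chrX:93632260-93632319, minus strand: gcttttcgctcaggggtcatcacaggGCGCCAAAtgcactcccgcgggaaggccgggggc
Rfc3, chr5:151651209-151651268, minus strand: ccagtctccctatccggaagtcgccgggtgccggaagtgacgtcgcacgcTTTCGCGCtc
Mcm5 and Mcm6 each hold 2 overlapping words that face each other, and Mcm6 holds a further one nearer its start. Orc1, the ORC subunit that was called, holds its word from 27 to 20 bases before the start. Orc3, Dtl and Rfc3 hold a word and were not called, whereas Mcm2, Prim1 and Chaf1b were called and hold none in this window. The CCAAT word was found before 25 of the 42 genes (59.5%, against 37.5% of all genes), and the E-box CACGTG, the word bound by Myc proteins, before 6 (14.3%, against 6.86%). A word is a match of letters and not a measured binding site, and its absence says only that these letters are not in this window.

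Of the 6 ORC subunits, Orc1, an ATPase subunit that is made and destroyed in each cell cycle, was the one called higher in AD cells. Orc1 lay at 6.54, 6.85, 6.64 and 5.84 log2 in AD replicates 1 to 4 and 5.89, 5.66, 5.61 and 5.49 log2 in AI replicates 1 to 4. Its first 3 AD arrays were above all AI arrays, and AD replicate 4 fell just under the highest AI array. The mean was 6.47 ± 0.44 log2 (AD) and 5.66 ± 0.17 log2 (AI), each with its SD over 4 arrays, with a log2 ratio of 0.81 (standard error 0.19, limma adjusted p = 0.0191). In AI cells Orc1 lay below the median signal of each array, so its ratio is not known exactly. The call of Orc1 was lost without AD replicates 1 or 3 or AI replicates 3 or 4 (log2 ratio 0.75 to 0.79, limma adjusted p of 0.0523 to 0.0568). Without AD replicate 4 the ratio was 1.02 (limma adjusted p = 0.000432).

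The other subunits form the body of the complex and bind DNA with Orc1. Orc2 lay at 9.63, 9.66, 9.55 and 9.22 log2 in AD replicates 1 to 4 and 9.15, 9.28, 8.997 and 9.15 log2 in AI replicates 1 to 4, and Orc6 at 9.11, 9.17, 9.25 and 8.67 log2 in AD replicates 1 to 4 and 8.73, 8.61, 8.51 and 8.67 log2 in AI replicates 1 to 4. Both passed the adjusted p at a smaller fold, with log2 ratios of 0.37 and 0.42 (limma adjusted p = 0.0357 and 0.0382), and in both AD replicate 4 sat among the AI arrays. Orc3 lay at 9.99, 10.14, 10.10 and 9.88 log2 in AD replicates 1 to 4 and 9.84, 9.78, 9.77 and 9.92 log2 in AI replicates 1 to 4. Orc5 lay at 8.66, 8.82, 8.82 and 8.52 log2 in AD replicates 1 to 4 and 8.49, 8.51, 8.39 and 8.54 log2 in AI replicates 1 to 4. For Orc3 and Orc5 the log2 ratios were 0.20 (95% interval 0.04 to 0.36) and 0.22 (0.05 to 0.40), and neither passed the adjusted p. Orc4 had the ratio nearest 0 of all 51 genes, 0.09 (-0.13 to 0.30). It lay at 9.56, 9.56, 9.35 and 9.20 log2 in AD replicates 1 to 4 and 9.29, 9.29, 9.24 and 9.50 log2 in AI replicates 1 to 4, so that AI replicate 4 was above AD replicates 3 and 4. Over the 6 subunits the median log2 ratio was 0.30, and 0.38 without AD replicate 4.

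Of the licensing factors, Cdc6, the ATPase that helps ORC load the helicase, was 1.54-fold higher in AD cells. Cdc6 lay at 7.90, 7.90, 7.56 and 7.10 log2 in AD replicates 1 to 4 and 7.23, 7.02, 6.89 and 6.83 log2 in AI replicates 1 to 4. AD replicates 1 and 2 were the highest, and AD replicate 4 lay under AI replicate 1. Its log2 ratio of 0.62 (standard error 0.17, limma adjusted p = 0.0354) put it just past both thresholds. The call of Cdc6 was lost without AD replicates 1, 2 or 3 or AI replicates 2, 3 or 4 (log2 ratio 0.53 to 0.64, limma adjusted p of 0.0702 to 0.0937). With AD replicate 4 left out the log2 ratio was 0.79 (limma adjusted p = 0.00229).

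Cdt1, the partner of Cdc6 in loading, and Gmnn, which encodes geminin, the inhibitor that binds Cdt1 after origins have fired, passed the adjusted p at under 1.5-fold. Cdt1 lay at 9.89, 9.96, 9.88 and 9.60 log2 in AD replicates 1 to 4 and 9.53, 9.43, 9.57 and 9.42 log2 in AI replicates 1 to 4. Gmnn lay at 6.56, 6.78, 6.92 and 6.41 log2 in AD replicates 1 to 4 and 6.39, 6.20, 6.29 and 6.35 log2 in AI replicates 1 to 4. In both genes AD replicate 4 came out just above the highest AI array and all AD arrays were above all AI arrays. The log2 ratios were 0.35 for Cdt1 (95% interval 0.16 to 0.54, limma adjusted p = 0.0183) and 0.36 for Gmnn (0.12 to 0.60, limma adjusted p = 0.0456).

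All 6 subunits of the MCM2-7 helicase rose in AD cells, by 1.52-fold to 1.86-fold, with a median log2 ratio of 0.68. Mcm4 changed the most. It lay at 9.77, 9.81, 9.77 and 9.13 log2 in AD replicates 1 to 4 and 8.95, 8.56, 8.54 and 8.85 log2 in AI replicates 1 to 4, a log2 ratio of 0.90 (standard error 0.16, limma adjusted p = 0.00493). The first 3 AD arrays of Mcm4 were close together, and AD replicate 4 was well below them and still above AI replicate 1. Mcm6, whose promoter stretch holds 3 E2F words, lay at 10.13, 10.18, 10.002 and 9.34 log2 in AD replicates 1 to 4 and 9.27, 9.07, 9.03 and 9.25 log2 in AI replicates 1 to 4, with a log2 ratio of 0.76 (standard error 0.17, limma adjusted p = 0.0141). AD replicate 4 was closer to the AI arrays here than in Mcm4.

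Mcm5 lay at 9.71, 9.77, 9.78 and 9.26 log2 in AD replicates 1 to 4 and 9.14, 8.85, 8.86 and 8.97 log2 in AI replicates 1 to 4, with a log2 ratio of 0.68 (standard error 0.12, limma adjusted p = 0.00499). Mcm3 lay at 9.60, 9.67, 9.47 and 8.86 log2 in AD replicates 1 to 4 and 8.91, 8.64, 8.62 and 8.74 log2 in AI replicates 1 to 4, with a log2 ratio of 0.67 (standard error 0.16, limma adjusted p = 0.0195). In Mcm3, unlike Mcm5, AD replicate 4 fell below the highest AI array, AI replicate 1. Mcm2 lay at 10.64, 10.62, 10.55 and 10.27 log2 in AD replicates 1 to 4 and 10.03, 9.77, 9.86 and 9.97 log2 in AI replicates 1 to 4, with a log2 ratio of 0.61 (standard error 0.10, limma adjusted p = 0.00237). Mcm7 lay at 10.76, 10.74, 10.74 and 10.44 log2 in AD replicates 1 to 4 and 10.20, 9.92, 9.99 and 10.15 log2 in AI replicates 1 to 4, with a log2 ratio of 0.61 (standard error 0.09, limma adjusted p = 0.00221). These had the smallest ratios of the complex and a tight spread, so that the fold and not the p decided the call. The call of Mcm3 was lost without AD replicates 1, 2 or 3 or AI replicates 2 or 3 (log2 ratio 0.58 to 0.65, limma adjusted p of 0.0511 to 0.0577). The call of Mcm2 was lost without AD replicates 1 or 2 or AI replicate 2 (log2 ratio 0.57 to 0.58, limma adjusted p of 0.00852 to 0.0094). The call of Mcm7 was lost without AD replicates 1, 2 or 3 or AI replicates 2 or 3 (log2 ratio 0.56 to 0.58, limma adjusted p of 0.00757 to 0.00966). Under quantile normalization Mcm2 and Mcm7 also came under 1.5-fold, and without AD replicate 4 all 6 subunits were called, with a median log2 ratio of 0.83.

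Firing needs Cdc7, a kinase, and Dbf4, the subunit that activates it. Dbf4 rose 1.53-fold in AD cells, and Cdc7 was not called. Dbf4 lay at 9.98, 10.02, 9.97 and 9.72 log2 in AD replicates 1 to 4 and 9.40, 9.25, 9.17 and 9.40 log2 in AI replicates 1 to 4, a log2 ratio of 0.62 (standard error 0.08, limma adjusted p = 0.00124). Cdc7 lay at 7.27, 7.37, 7.22 and 6.97 log2 in AD replicates 1 to 4 and 6.92, 6.75, 6.85 and 7.06 log2 in AI replicates 1 to 4, a log2 ratio of 0.31 (standard error 0.10, limma adjusted p = 0.0527). All AD arrays of Dbf4 were above its AI arrays by a wide margin, whereas AD replicate 4 of Cdc7 was under AI replicate 4. The call of Dbf4 was lost without AD replicate 2 or AI replicate 3 (log2 ratio 0.57 to 0.58, limma adjusted p of 0.00483 to 0.00489). Whether the pair differ in their response was not tested. Mcm10, which the helicase needs to be activated and which holds polymerase α at the fork, rose 1.71-fold. It lay at 9.11, 9.17, 9.08 and 8.44 log2 in AD replicates 1 to 4 and 8.29, 8.06, 8.12 and 8.23 log2 in AI replicates 1 to 4, a log2 ratio of 0.77 (standard error 0.15, limma adjusted p = 0.00727).

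Of the helicase cofactors, Cdc45 and 3 of the 4 GINS subunits rose in AD cells. Cdc45 lay at 8.49, 8.50, 8.45 and 8.04 log2 in AD replicates 1 to 4 and 7.82, 7.63, 7.54 and 7.81 log2 in AI replicates 1 to 4, a log2 ratio of 0.67 (standard error 0.11, limma adjusted p = 0.00386). Gins1 had the largest change of the 5 genes and lay at 8.30, 8.25, 8.12 and 7.77 log2 in AD replicates 1 to 4 and 7.58, 7.35, 7.19 and 7.34 log2 in AI replicates 1 to 4, a log2 ratio of 0.75 (standard error 0.12, limma adjusted p = 0.00344). Gins2 and Gins3 had log2 ratios of 0.64 and 0.72 (limma adjusted p = 0.00229 and 0.00525). Every AD array was above every AI array for each of the 5, Gins4 included. Gins4 lay at 10.17, 10.16, 10.07 and 9.99 log2 in AD replicates 1 to 4 and 9.93, 9.97, 9.88 and 9.92 log2 in AI replicates 1 to 4, a log2 ratio of 0.17 (95% interval 0.04 to 0.30, limma adjusted p = 0.0725). It did not pass the adjusted p, and its interval ends below 1.5-fold. The Cdc45 and GINS calls held whichever array was left out.

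Among the 9 polymerase genes the 4 called higher in AD cells were Pola1, Prim1, Prim2 and Pole. Pola1, the catalytic subunit of polymerase α, changed the most of all 51 genes, 2.04-fold, the only one to reach 2-fold. It lay at 8.84, 8.69, 8.79 and 8.18 log2 in AD replicates 1 to 4 and 7.79, 7.45, 7.44 and 7.71 log2 in AI replicates 1 to 4, a log2 ratio of 1.03 (standard error 0.15, limma adjusted p = 0.00159). AD replicate 4 lay midway between the other AD arrays and the AI arrays. Prim1, the catalytic subunit of primase, lay at 9.92, 10.14, 9.97 and 9.59 log2 in AD replicates 1 to 4 and 9.21, 8.95, 8.96 and 9.16 log2 in AI replicates 1 to 4, a log2 ratio of 0.84 (standard error 0.12, limma adjusted p = 0.00133), with no overlap. Prim2, the other primase subunit, had 0.65 (limma adjusted p = 0.0068). The call of Prim2 was lost without AD replicate 2 (log2 ratio 0.58, limma adjusted p = 0.0192). Pole, the catalytic subunit of the leading strand polymerase ε, had 0.69 (limma adjusted p = 0.00425).

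Pola2, Pole2, Pold1, Pold2 and Pold3 passed the adjusted p at under 1.5-fold. Pola2, the regulatory subunit of polymerase α, lay at 8.49, 8.59, 8.62 and 8.08 log2 in AD replicates 1 to 4 and 8.04, 8.004, 7.99 and 8.10 log2 in AI replicates 1 to 4, and Pole2, a subunit of polymerase ε, at 10.21, 10.27, 10.11 and 9.67 log2 in AD replicates 1 to 4 and 9.70, 9.59, 9.51 and 9.69 log2 in AI replicates 1 to 4. In both AD replicate 4 fell within the AI arrays, and the log2 ratios were 0.41 and 0.44. The subunits of the lagging strand polymerase δ had lower ratios, 0.27 for the catalytic subunit Pold1, 0.23 for Pold2 and 0.38 for Pold3, with 95% intervals of 0.09 to 0.46, 0.10 to 0.37 and 0.23 to 0.53, all of which end below 1.5-fold. Pold2 had the lowest of the 9 ratios and lay at 10.90, 10.98, 10.97 and 10.80 log2 in AD replicates 1 to 4 and 10.71, 10.72, 10.68 and 10.59 log2 in AI replicates 1 to 4, a small shift with no overlap of arrays. Pold4, the fourth subunit of polymerase δ, ran the other way and is described with the further replication genes below.

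**Figure D2:**
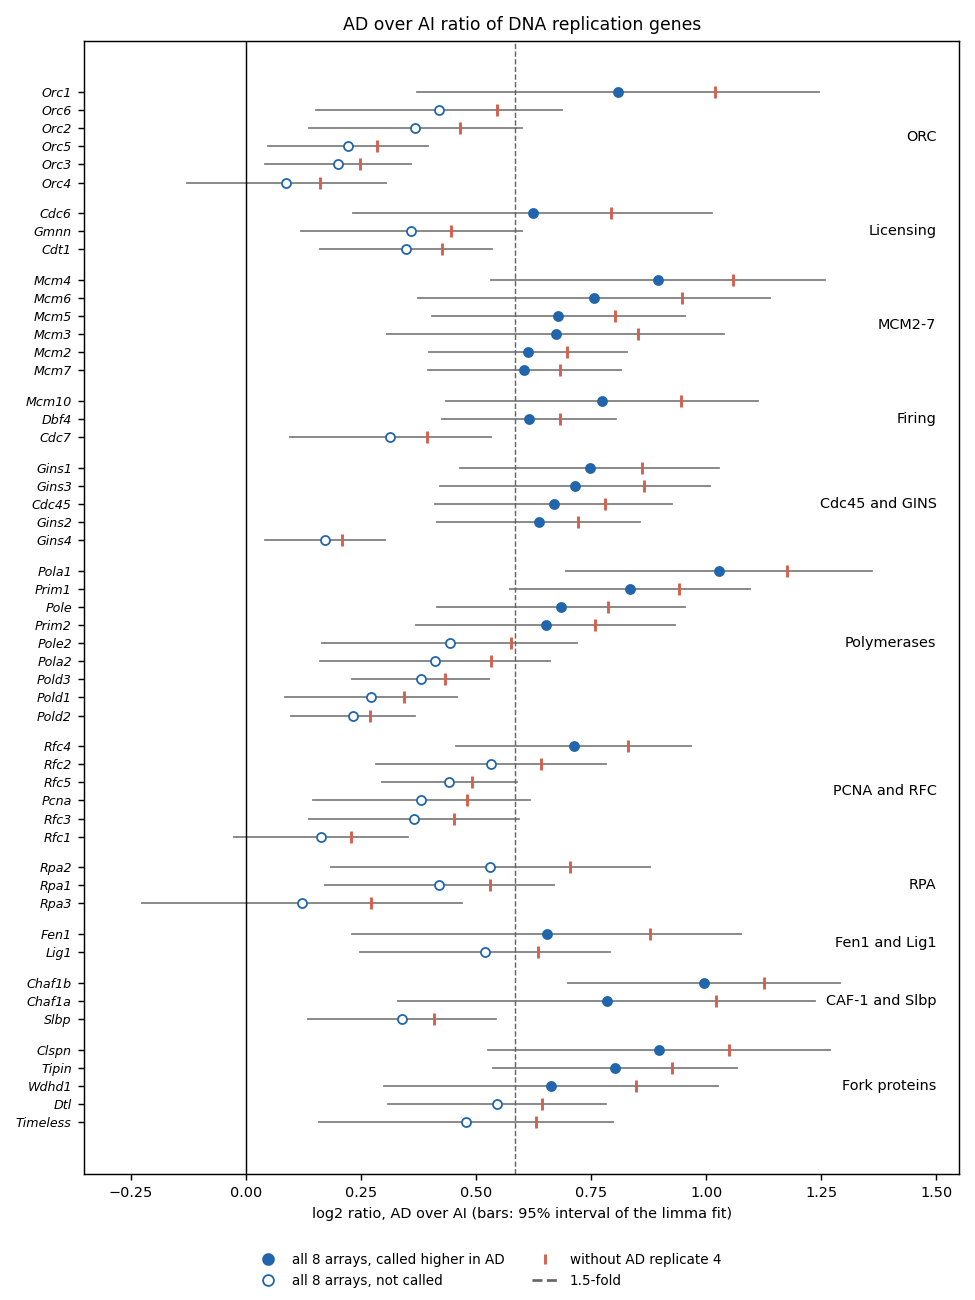
log2 ratio of AD over AI for the 51 genes, by complex and in order of size, with the 95% interval of the limma fit over 8 arrays (filled blue, called; open blue, not called) and the ratio without AD replicate 4 (red tick). The dashed line is 1.5-fold. All 51 ratios are above 0, from 0.09 for Orc4 to 1.03 for Pola1. All red ticks lie to the right of the blue circles, which follows from AD replicate 4 being the lowest AD array for every gene.

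Of PCNA and the clamp loader, 1 of 6 genes was called higher in AD cells, and 5 passed the adjusted p at any fold. Rfc4, a small subunit of RFC, was 1.64-fold higher and lay at 10.58, 10.53, 10.46 and 10.05 log2 in AD replicates 1 to 4 and 9.83, 9.59, 9.66 and 9.69 log2 in AI replicates 1 to 4, a log2 ratio of 0.71 (standard error 0.11, limma adjusted p = 0.00269). Pcna itself lay at 11.27, 11.33, 11.37 and 10.93 log2 in AD replicates 1 to 4 and 10.97, 10.86, 10.68 and 10.86 log2 in AI replicates 1 to 4, a log2 ratio of 0.38 (standard error 0.10, limma adjusted p = 0.0337). AD replicate 4 of Pcna came under AI replicate 1. Another cluster annotated to the same transcripts gave Pcna a log2 ratio of 0.38. The other small subunits Rfc2, Rfc3 and Rfc5 had log2 ratios of 0.53, 0.37 and 0.44 (limma adjusted p = 0.0098, 0.0346 and 0.00172), with no overlap of arrays, and Rfc2 was called without AD replicate 4 (log2 ratio 0.64, limma adjusted p = 0.000708).

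Rfc1, the large subunit that makes the complex specific to PCNA loading, did not pass the adjusted p. It lay at 9.87, 9.73, 9.81 and 9.54 log2 in AD replicates 1 to 4 and 9.66, 9.52, 9.46 and 9.66 log2 in AI replicates 1 to 4, a log2 ratio of 0.16 (95% interval -0.03 to 0.35, limma adjusted p = 0.233), with AD replicate 4 among the AI arrays. The small subunits also serve other loaders, each with a large subunit of its own. Of these, Chtf18, of the loader that works with cohesion, and Atad5, of the complex that unloads PCNA, rose, at 0.86 and 0.83 on the log2 scale of AD over AI (limma adjusted p = 0.00486 and 0.00716), and Rad17, which loads the checkpoint clamp, stood at 0.18 (limma adjusted p = 0.181). Chtf8 and Dscc1, which work with Chtf18 in its loader, did not pass the adjusted p, at 0.17 and 0.38 (limma adjusted p = 0.198 and 0.114). These genes were taken from the list of further replication genes and set together after their values were seen.

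None of the 3 RPA genes, whose products coat single-stranded DNA, was called. Rpa1 lay at 8.34, 8.37, 8.26 and 7.88 log2 in AD replicates 1 to 4 and 7.95, 7.77, 7.68 and 7.78 log2 in AI replicates 1 to 4. Rpa2 lay at 8.53, 8.62, 8.57 and 7.88 log2 in AD replicates 1 to 4 and 8.02, 7.90, 7.73 and 7.82 log2 in AI replicates 1 to 4. Rpa3 lay at 10.20, 10.55, 10.36 and 9.77 log2 in AD replicates 1 to 4 and 10.29, 9.90, 10.05 and 10.16 log2 in AI replicates 1 to 4. In all 3 genes AD replicate 4 sat at the level of the AI arrays or under it, and in Rpa3 it was below each of them. The log2 ratios were 0.42 (limma adjusted p = 0.0283), 0.53 (limma adjusted p = 0.0418) and 0.12 (limma adjusted p = 0.669, 95% interval -0.23 to 0.47). Without AD replicate 4 Rpa2 was called (log2 ratio 0.70, limma adjusted p = 0.000456), and Rpa3 still did not pass (log2 ratio 0.27, limma adjusted p = 0.114). A dimmer cluster of Rpa3 gave a log2 ratio of 0.02.

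Fen1, the nuclease that trims the flaps of Okazaki fragments, was 1.57-fold higher in AD cells on average, and Lig1, the ligase that seals them, was not called. Fen1 lay at 7.94, 7.98, 7.89 and 7.04 log2 in AD replicates 1 to 4 and 7.13, 7.10, 6.95 and 7.06 log2 in AI replicates 1 to 4. The first 3 AD arrays of Fen1 were far above the rest, while AD replicate 4 lay just below the mean of the AI arrays. The log2 ratio of 0.65 (standard error 0.19, limma adjusted p = 0.0402) thus rested on those 3 arrays. The call of Fen1 was lost without AD replicates 1, 2 or 3 or AI replicates 1, 2, 3 or 4 (log2 ratio 0.57 to 0.68, limma adjusted p of 0.0718 to 0.106). Without AD replicate 4 the ratio was 0.88 (limma adjusted p = 6.24e-05). Lig1 lay at 9.07, 9.10, 8.998 and 8.59 log2 in AD replicates 1 to 4 and 8.57, 8.30, 8.27 and 8.53 log2 in AI replicates 1 to 4, with no overlap and a log2 ratio of 0.52 (standard error 0.12, limma adjusted p = 0.0165), and it was called without AD replicate 4 (log2 ratio 0.64, limma adjusted p = 0.00143).

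Chaf1a and Chaf1b, subunits of the chromatin assembly factor CAF-1, which places histones on new DNA, rose in AD cells. Chaf1b, which had the second largest ratio of the 51 genes, lay at 9.92, 10.01, 9.83 and 9.40 log2 in AD replicates 1 to 4 and 8.97, 8.85, 8.62 and 8.74 log2 in AI replicates 1 to 4, a log2 ratio of 1.00 (standard error 0.13, limma adjusted p = 0.000989). Chaf1a lay at 7.93, 7.9996, 7.93 and 7.002 log2 in AD replicates 1 to 4 and 6.98, 6.82, 6.88 and 7.05 log2 in AI replicates 1 to 4, a log2 ratio of 0.78 (standard error 0.20, limma adjusted p = 0.0253). The pair parted in AD replicate 4, which was above all AI arrays for Chaf1b and inside their range for Chaf1a. The call of Chaf1a was lost without AD replicates 1, 2 or 3 or AI replicates 1, 2 or 3 (log2 ratio 0.69 to 0.80, limma adjusted p of 0.0521 to 0.0721). Without AD replicate 4 the log2 ratio of Chaf1a was 1.02 (limma adjusted p = 5.05e-05). Slbp, which binds the stem-loop of histone mRNA, lay at 8.78, 8.54, 8.61 and 8.36 log2 in AD replicates 1 to 4 and 8.32, 8.31, 8.13 and 8.17 log2 in AI replicates 1 to 4, with no overlap and a log2 ratio of 0.34 (standard error 0.09, limma adjusted p = 0.0297). Another cluster of Slbp gave a log2 ratio of 0.46.

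Clspn, Tipin and Wdhd1 were called higher in AD cells among the 5 genes that act at the moving fork. Clspn, the adaptor claspin that passes the stalled fork signal to the kinase Chk1, lay at 7.28, 7.59, 7.24 and 6.77 log2 in AD replicates 1 to 4 and 6.37, 6.03, 6.43 and 6.46 log2 in AI replicates 1 to 4, a log2 ratio of 0.90 (standard error 0.16, limma adjusted p = 0.00545). Tipin and Timeless form a complex that steadies the fork. Tipin had 0.80 (limma adjusted p = 0.00178) with no overlap, and Timeless lay at 6.91, 7.003, 6.87 and 6.32 log2 in AD replicates 1 to 4 and 6.39, 6.10, 6.33 and 6.37 log2 in AI replicates 1 to 4, a log2 ratio of 0.48 (standard error 0.14, limma adjusted p = 0.0454). AD replicate 4 of Timeless was inside the AI range, and without it Timeless was called (log2 ratio 0.63, limma adjusted p = 0.00113). Wdhd1, a scaffold between the helicase and polymerase α, lay at 8.81, 8.78, 8.68 and 8.02 log2 in AD replicates 1 to 4 and 7.90, 7.84, 7.85 and 8.06 log2 in AI replicates 1 to 4, a log2 ratio of 0.66 (standard error 0.16, limma adjusted p = 0.0202), with AD replicate 4 just under AI replicate 4. The call of Wdhd1 was lost without AD replicates 1, 2 or 3 or AI replicates 2 or 3 (log2 ratio 0.58 to 0.64, limma adjusted p of 0.0516 to 0.0583). Dtl, which directs the destruction of Cdt1 in S phase, had no overlap and a log2 ratio of 0.55 (limma adjusted p = 0.00679), and it was called without AD replicate 4 (log2 ratio 0.64, limma adjusted p = 0.000741).

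**Figure D3:**
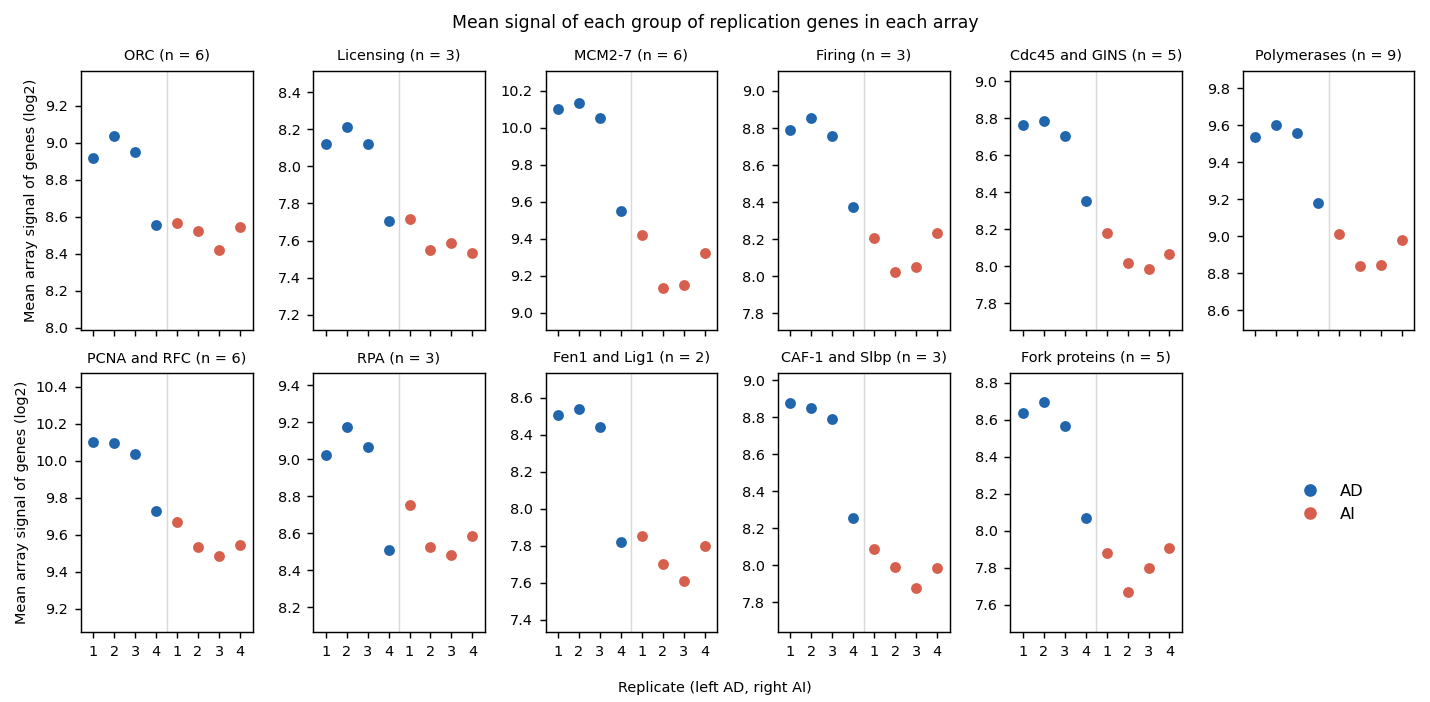
Mean array signal (log2) of the genes of each complex in each array, AD in blue and AI in red, on axes that each span 1.4 log2. AD replicate 4 lies among the AI arrays for ORC, the licensing factors, RPA and Fen1 with Lig1. For every other group, from MCM2-7 and firing to the fork proteins, it lies between the other AD arrays and the AI arrays.

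Over these 51 genes the spread between AD arrays was wider than that between AI arrays. The SD of a gene had a median of 0.23 log2 over the AD arrays and 0.12 log2 over the AI arrays, and 0.07 log2 over AD replicates 1 to 3. The mean of the 51 genes was 9.20, 9.25, 9.17 and 8.74 log2 in AD replicates 1 to 4 and 8.65, 8.49, 8.47 and 8.58 log2 in AI replicates 1 to 4. AD replicate 4 was thus closer to the AI arrays than to the other AD arrays. Of the AI arrays, AI replicate 1 was the highest for 35 genes and AI replicate 3 the lowest for 26. These SDs and AI counts were not taken over all clusters, so they are not shown to be particular to these genes.

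How close AD replicate 4 lay to the AI arrays differed between genes. Its position is given here on a scale where the AI mean is 0% and the mean of the other AD arrays is 100%. The median over the 51 genes was 27.4%, and 45.2% when the arrays were quantile normalized. AD replicate 4 lay nearest to the other AD arrays for Rfc5 (60.4%), Dbf4, Prim1 (55.4%), Mcm7 (55.2%) and Chaf1b (53.9%). It was at or below the AI mean for Orc4, Rfc1, Rpa3 and Fen1. By complex, as deposited, the median was 45.8% for the polymerases, 43.2% for Cdc45 and GINS, 39.1% for the fork genes and 38.4% for MCM2-7. It was 31.8% for CAF-1 with Slbp, 28.3% for PCNA and RFC, 27.7% for firing and 22.8% for the licensing factors. The lowest were 15.0% for ORC, 12.8% for Fen1 and Lig1 (2 genes) and 2.19% for RPA (3 genes). The scale is unstable where the difference itself is small, as for Orc4 and Rpa3. AD replicate 4 was at or below the highest AI array for 20 genes as deposited, for 15 with the arrays centred on their medians and for 8 after quantile normalization, and it was the lowest AD array for all 51 under each of these scalings.

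**Figure D4:**
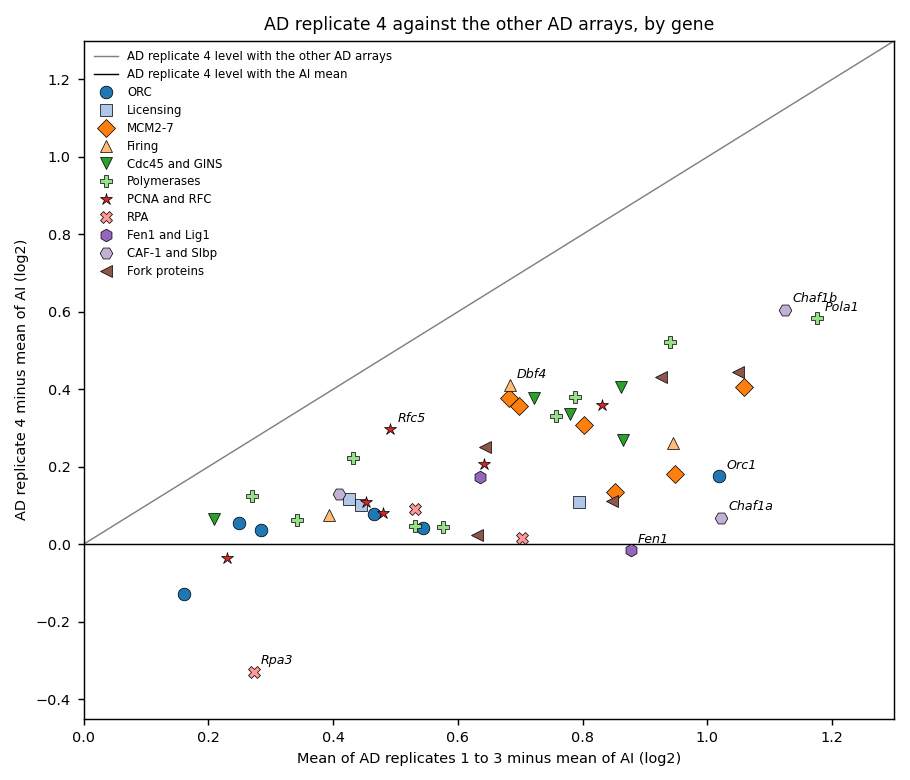
For each of the 51 genes, AD replicate 4 minus the AI mean (vertical, log2) against the mean of AD replicates 1 to 3 minus the AI mean (horizontal, log2), with symbols by complex. All points lie below the grey line of equal level. Fen1 and Chaf1a sit near the black line at the AI mean and Pola1 and Chaf1b far above it.

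A further 54 genes of replication and its control, none of them a member, were measured for context. Of these, 15 were called higher in AD cells, 1 lower and 38 not called, with a median log2 ratio of 0.45. Over all clusters 1.39% were called higher and 2.53% lower. AD replicate 4 was the lowest AD array for 51 of these 54 genes too, against 31.1% of all clusters. With the arrays centred on their medians, 24 were called higher, and the share over all clusters was not counted there. At any fold 40 passed the adjusted p toward AD cells and 1 toward AI cells, against 8.5% and 9.62% of all clusters. The largest increases were in Hells, a chromatin remodeler, at 1.18 (standard error 0.18, limma adjusted p = 0.00232), Ticrr, also called treslin, which acts in origin firing, at 1.13 (standard error 0.15, limma adjusted p = 0.00099), and Dna2, a nuclease of Okazaki fragments, at 0.97 (standard error 0.17, limma adjusted p = 0.00442). The others called higher include Tyms (0.96), Rrm2 (0.75) and Tk1 (0.65), enzymes of nucleotide supply, Chek1 (0.81), the kinase Chk1 of the fork checkpoint, Nasp (0.69), a histone carrier, and Ccne2 (0.65), a cyclin of S phase entry. Ticrr lay at 9.09, 9.14, 9.17 and 8.65 log2 in AD replicates 1 to 4 and 8.06, 7.52, 7.85 and 8.08 log2 in AI replicates 1 to 4, and all its AD arrays were far above its AI arrays.

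The gene that fell was Pold4, the smallest subunit of polymerase δ. It lay at 7.12, 7.35, 7.06 and 7.71 log2 in AD replicates 1 to 4 and 8.02, 8.07, 7.997 and 7.80 log2 in AI replicates 1 to 4, so that its AD arrays were all below its AI arrays. The log2 ratio of -0.66 (standard error 0.13, limma adjusted p = 0.00869) put its AD level at 0.631 of its AI level. The call of Pold4 was lost without AD replicate 3 and held when any other single array was left out. AD replicate 4 was again the AD array nearest the AI arrays. Cul4a and Ddb1, parts of the ligase that Dtl serves, had log2 ratios of -0.02 and 0.01, and neither passed the adjusted p.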

How the data were processed

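RNA of 8 Neuro2a samples, 4 AD and 4 AI, was hybridized by the authors to Affymetrix mouse gene arrays, 1 array per sample. The deposited values are log2 signals, 1 per transcript cluster, and the submitters' processing notes name GCRMA and Partek 6.5. Their normalization was kept. Arrays give no read depth, so the number of arrays and the signal over background limit the precision. Clusters were named by the platform annotation, matched by gene number to RefSeq (GRCm38.p6). Of the 35556 clusters, 21789 had a single symbol, 1621 several and 12146 none, and only the first kind were named.

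AD and AI arrays were compared on all clusters with limma 3.58.1 (R 4.3.3, lmFit and eBayes) and Benjamini-Hochberg adjustment. Calls needed both 1.5-fold and an adjusted p below 0.05, the thresholds of the series' design text. Intervals are 95% intervals of that fit. In a test on simulated data with 200 changed clusters, 88% of those changed 1.75-fold and 96% of those changed 2-fold were recovered, with 3 false calls. The simulated noise was independent between clusters and had the same SD in both states. It therefore does not cover an array that strays in many genes at once, nor changes under 1.75-fold, where many of the calls lie. The genes and lists were chosen with earlier results of these data known, so no test was run over a list. Values of every array are given for the called gene with the largest ratio and the gene nearest 0 in each complex, for Cdc6, Cdt1, Gmnn, Cdc45, Cdc7, Dbf4, Mcm10 and Pcna, for every gene whose groups overlap, and for some others where they help. Of the 54 further genes, the 3 with the largest change in each direction were to be described, and 1 fell. Alternatives were other normalizations, variance models, thresholds, the methods' analysis of variance, the replicate number as a block and each array left out. Promoter windows came from RefSeq (GRCm38.p6), which covered 42 of the 51 genes here.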

Additional observations from a re-analysis of the deposited data

Results flagged for a closer look

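In 12 of the 102 groups of 4 arrays (51 genes in AD and in AI cells) 1 array stood far from the other 3 by Dixon's test for an outlier, and chance gives about 1 in 20. In all 12 the array was AD replicate 4, which was the lowest. Its signal was 9.13 log2 for Mcm4, 9.26 log2 for Mcm5 and 10.44 log2 for Mcm7, subunits of the helicase. It was 9.72 log2 for Dbf4, 8.44 log2 for Mcm10, 8.04 log2 for Cdc45 and 7.48 log2 for Gins3, which act in firing. At the fork it was 10.34 log2 for Rfc5, 7.88 log2 for Rpa2, 7.04 log2 for Fen1, 7.002 log2 for Chaf1a and 8.02 log2 for Wdhd1. The genes share their arrays, so these are not 12 independent events, and what sets AD replicate 4 apart was not tested. The share of all clusters flagged by the same test was not counted. The low weight of that array, 0.35, was fitted over all clusters, so the count is not shown to be particular to these genes.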

How the results depend on the processing

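The log2 ratio of AD over AI stayed above 0 for all 51 genes under the deposited scaling, quantile normalization and median centring, and no gene was called lower under any of the settings tried. The number called higher was 25, and it was 16 to 30 when single arrays were left out (16 without AD replicate 2), with the median ratio at 0.49 to 0.68 log2. By group the ranges were 0 to 1 for ORC, for the licensing factors and for RPA, 3 to 6 for MCM2-7, 1 to 2 for firing, for PCNA and RFC and for CAF-1 with Slbp, 4 for Cdc45 and GINS, 3 to 4 for the polymerases, 0 to 2 for Fen1 and Lig1, 2 to 5 for the fork genes and 13 to 22 for the further replication genes. At any fold 44 passed, with 3 of ORC, 3 licensing factors, 9 polymerase genes, 5 of PCNA and RFC, 2 of RPA, 2 of Fen1 and Lig1 and 5 fork genes among them, and 40 further genes passed. At 2-fold 1 gene (Pola1) was called, so that the polymerases had 1, every other group that had calls had 0, and the further genes had 2. The methods' analysis of variance and an adjusted p under 0.01 each gave 18, with 0 in ORC, 0 licensing factors, 0 of Fen1 and Lig1 and 1 of CAF-1 with Slbp. Median centring gave 29, with 2 of PCNA and RFC, 1 of RPA, 2 of Fen1 and Lig1 and 24 further genes. Array weights gave 26, with 1 of RPA. Quantile normalization gave 23. Shares over all clusters were counted for the main thresholds, at any fold and without AD replicate 4, and not for the other settings.

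The replicate number as a block gave 22 genes, with 0 of Fen1 and Lig1 and 1 of CAF-1 with Slbp. Deviations of same-numbered arrays correlated at -0.11, 0.08, 0.00 and -0.17 over all clusters, so no strong shared shift was seen. These values cannot tell whether same-numbered samples were handled together, and no batch is stated. E2F words were found for 10 genes, for 6 in the 100 bases before the start, and for 17 when the 50 bases after it were added, a window chosen after seeing the data. The causes of these shifts were not tested beyond the thresholds themselves. Calls near 1.5-fold and 4 arrays a group limit what can be told apart, and the signal of Orc1 in AI cells lay below the array medians.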
